A study of Homo sapiens with 24 samples.

Results

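The aminoacyl-tRNA synthetase genes were described in HepG2 cells, an established human hepatoma line, across 6 treatments. The members were a fixed list of 36 gene names, found in the count table by name: 36 of 18915 genes, 20 for cytosolic enzymes and 16 for mitochondrial enzymes (names ending in 2). All 36 passed the filter on low counts, as did 12685 genes in all. The cells were treated for 10 h with vehicle (DMSO), ISRIB (50 nM), nelfinavir (Nelf, 20 µM), bortezomib (Btz, 50 nM), bortezomib with nelfinavir (Btz+Nelf) or bortezomib with ISRIB (Btz+ISRIB), at the single-agent concentrations in the co-treatments. Each treatment had 4 biological replicates, 24 libraries in all, from cells kept and treated in complete growth medium. The libraries were 3′ mRNA-Seq (QuantSeq), in which reads fall near the poly(A) tail and do not scale with transcript length, so levels are CPM (counts relative to the scaled library total) after TMM scaling and are not divided by length. Every value comes from this 1 line, and p-values measure the spread between cultures of it.

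Each aminoacyl-tRNA synthetase joins 1 amino acid to its cognate tRNAs, the reaction that supplies the ribosome and sets which amino acid a codon is read as. Cytosolic and mitochondrial protein synthesis use mostly separate enzymes, both encoded in the nucleus, except that *GARS* and *KARS* each give rise to a cytosolic and a mitochondrial form. When uncharged tRNA accumulates, the kinase GCN2 (*EIF2AK4*) phosphorylates eIF2α, which lowers general translation but favours translation of the transcription factor ATF4. Many cytosolic synthetase genes are known targets of ATF4. Bortezomib inhibits the proteasome, nelfinavir is an HIV protease inhibitor that raises eIF2α phosphorylation, and ISRIB makes cells insensitive to that phosphorylation. The comparisons asked how these genes respond to proteasome inhibition and to a change of the eIF2α–ATF4 pathway upward or downward, alone and on top of bortezomib.

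Levels of the defining hepatoma genes matched the line's label. Mean *ALB* levels per treatment lay between 2064 and 3321 CPM, the *AFP*, *APOA1*, *APOB*, *TTR* and *SERPINA1* genes were counted in all 24 libraries, and the fibroblast gene *COL1A1* had no count in the DMSO, ISRIB, Nelf or Btz libraries. Values of *COL1A1* in the co-treatments, of the leukocyte gene *PTPRC* and of the endothelial gene *PECAM1* are not given here. No statement on the absence of other cell types is therefore made. Total counts ran from 5154533 to 6943164 per library. Mitochondrially encoded genes took 21.5 ± 1.32% of a library's counts with DMSO and 33.8 ± 1.19% with bortezomib (SD, n = 4 each). With the 13 such genes removed before scaling, 89 of 91 calls among the members held and the cytosolic median with bortezomib went from 0.74 to 0.69. TMM scaling set the median log2 fold change of all genes with bortezomib at 0.00, whereas scaling by library totals alone set it at -0.49. Under the latter scaling the split of all genes called moved from 3500 higher and 3274 lower to 1490 higher and 6265 lower, and bortezomib changes below are relative to the TMM median. Counts are relative, so neither the amount of RNA per cell nor the number of cells can be read from these bulk libraries.

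Together the 20 cytosolic genes took 1777 ± 18.1 CPM with DMSO and 1667 ± 28.5 with ISRIB (SD, n = 4 each). Their summed level was 3038 ± 106 with nelfinavir, 2932 ± 47.0 with bortezomib, 3424 ± 140.5 with Btz+Nelf and 2410 ± 80.5 with Btz+ISRIB. In these TMM-scaled levels the libraries of both single agents lay above all DMSO libraries, all 4 Btz+Nelf libraries lay above all bortezomib libraries, and all 4 Btz+ISRIB libraries lay below them. Part of this order depends on the scaling. As a share of counts without mitochondrially encoded genes, the cytosolic mean was highest with nelfinavir alone (0.454%), against 0.392% with Btz+Nelf and 0.379% with bortezomib. There Btz+Nelf replicate 4 (0.381%) lay below Btz replicate 1 (0.386%). The 16 mitochondrial genes summed to 307 ± 6.89 CPM with DMSO, 299 ± 14.8 with ISRIB, 260.5 ± 5.52 with nelfinavir and 277 ± 11 with bortezomib. With Btz+Nelf and Btz+ISRIB they summed to 238 ± 8.63 and 257 ± 13.9 CPM. All Btz, Nelf, Btz+Nelf and Btz+ISRIB libraries were below all DMSO libraries for the mitochondrial sum. *IARS2* took a large part of that sum, with means of 67.6 CPM with DMSO, 34.3 with bortezomib and 42.3 with nelfinavir, and its drop with bortezomib was as large as that of the sum, so the lower sum there is not a fall across the class.

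**Figure D1:**
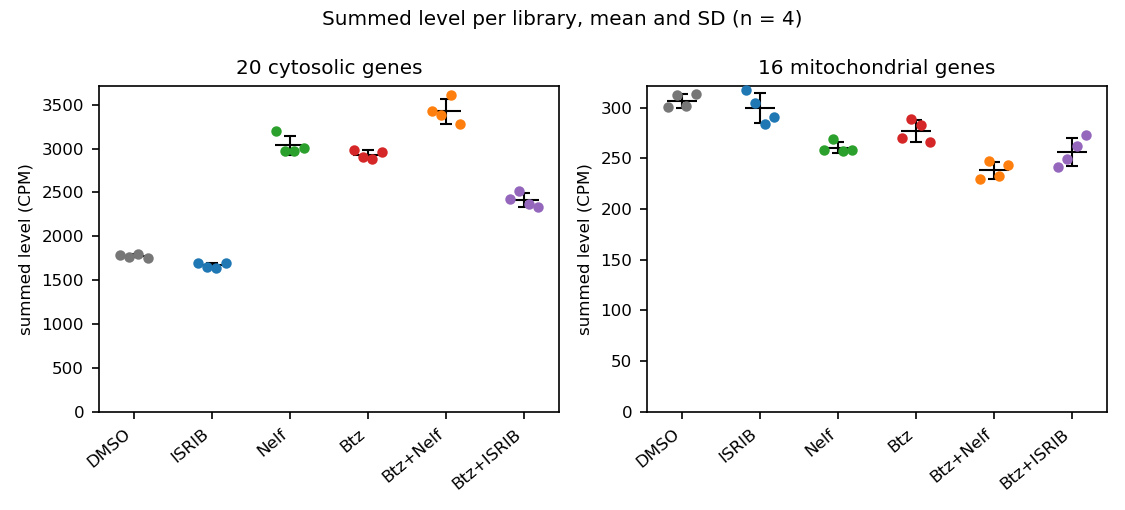
Summed level in CPM (vertical axis, from 0) of the 20 cytosolic (left) and 16 mitochondrial (right) genes in each of the 24 libraries by treatment (horizontal axis). Points are libraries, and bars are the mean and SD of 4: in TMM-scaled CPM the cytosolic sum was highest with Btz+Nelf (mean 3424) and the mitochondrial sum lowest there (mean 238). As a share of counts without mitochondrially encoded genes, the cytosolic sum was highest with nelfinavir alone.

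The promoters were searched for the core of the C/EBP-ATF composite element, which ATF4 dimers are known to bind, and the windows that hold it are printed to show in which members it occurs. RefSeq promoter windows (250 bases before to 50 after the start, GRCh38.p14) were matched for 30 of the 36 genes, 16 cytosolic and 14 mitochondrial. *DARS*, *LARS*, *VARS*, *YARS*, *AARS2* and *VARS2* were not matched. TGATGNAA, searched on both strands, was found in 6 of 16 cytosolic windows (37.5%), in 1 of 14 mitochondrial windows (7.14%) and in 3.62% of the 35116 windows in the table. The cAMP response element TGACGTCA was found in none of the 30 windows and in 1.85% of the table. In all 6 cytosolic windows the match read TGATGCAA on 1 strand, a form held by 0.866% of the table and looked at after the matches were seen. The 30 bases around each match are printed 5′ to 3′ on the gene's own strand, with the match in capitals.
AARS: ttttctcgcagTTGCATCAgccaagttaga
CARS: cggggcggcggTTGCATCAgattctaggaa
IARS: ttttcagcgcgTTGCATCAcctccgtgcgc
MARS: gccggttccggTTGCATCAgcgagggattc
NARS: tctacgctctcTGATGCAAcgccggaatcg
TARS: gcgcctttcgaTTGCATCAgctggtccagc
YARS2: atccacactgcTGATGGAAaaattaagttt
The match began 187 bases before the start in *AARS*, 13 in *IARS*, 4 in *MARS*, 2 in *CARS* and 197 in *YARS2*, and 14 and 2 bases past the start in *NARS* and *TARS*. A match is a description of letters and was not tested for binding.

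Bortezomib raised 13 of the 20 cytosolic genes and lowered none, with a median log2 fold change of 0.74 against 0.00 over all genes tested. Among all genes, 27.6% were called higher and 25.8% lower (edgeR quasi-likelihood test, Benjamini-Hochberg adjusted p under 0.05). The largest rises were those of the cysteinyl enzyme *CARS*, by 1.98 (SE 0.108, adjusted p = 1.04e-16) on the log2 scale or 3.96-fold, the glycyl enzyme *GARS*, by 1.79 (SE 0.0760, adjusted p = 1.41e-19), and the methionyl enzyme *MARS*, by 1.64 (SE 0.0839, adjusted p = 2.23e-17). The isoleucyl, tyrosyl and seryl enzymes followed, *IARS* at 1.22 (SE 0.219), *YARS* at 1.09 (SE 0.0923) and *SARS* at 1.06 (SE 0.108). *HARS* for histidine rose by 1.02, *WARS* for tryptophan by 1.02, *TARS* for threonine by 0.86 and *AARS* for alanine by 0.80. Smaller rises were those of *EPRS*, the joint glutamyl and prolyl enzyme, by 0.67, *NARS* for asparagine by 0.60 and *LARS* for leucine by 0.55. The 7 not called were *FARSA* (0.18) and *FARSB* (-0.10), the subunits of the phenylalanyl enzyme, *QARS* (0.15), *KARS* (-0.01), *DARS* (-0.03), *RARS* (-0.05) and *VARS* (-0.19), for glutamine, lysine, aspartate, arginine and valine. Scaled by library totals alone, 10 cytosolic genes were higher and 7 lower, with a median of 0.24 against -0.49 over all genes, and *EPRS*, *NARS* and *LARS* lost their calls.

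Nelfinavir alone raised 12 cytosolic genes and lowered 1, with a median log2 fold change of 0.65 against 0.01 over all genes. Of all genes, 10.4% were called higher and 8.84% lower. *CARS* rose by 1.98 (SE 0.107, adjusted p = 5.3e-16), *GARS* by 1.96 (SE 0.0759, adjusted p = 5e-20), *SARS* by 1.63 (SE 0.107, adjusted p = 7.81e-14) and *MARS* by 1.53 (SE 0.0833, adjusted p = 5.73e-16) on the log2 scale. *WARS*, *YARS* and *AARS* rose by 1.45, 1.41 and 1.30. *TARS* followed at 1.00, *IARS* at 0.92, *EPRS* at 0.68, *NARS* at 0.62 and *LARS* at 0.30. The arginyl enzyme *RARS* fell by 0.52 (SE 0.117, adjusted p = 0.00121), from 148 ± 11.2 to 103 ± 16.9 CPM (SD, n = 4 each). The 7 not called were *VARS* (0.17), *DARS* (0.13), *HARS* (-0.04), *QARS* (-0.06), *FARSB* (-0.08), *KARS* (-0.12) and *FARSA* (-0.19). *LARS* was no longer called without DMSO replicate 1, 2 or 3, Nelf replicate 1 or 3, or without the low-count filter (adjusted p 0.0537 to 0.0903). Both single-agent comparisons share the DMSO libraries.

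**Figure D2:**
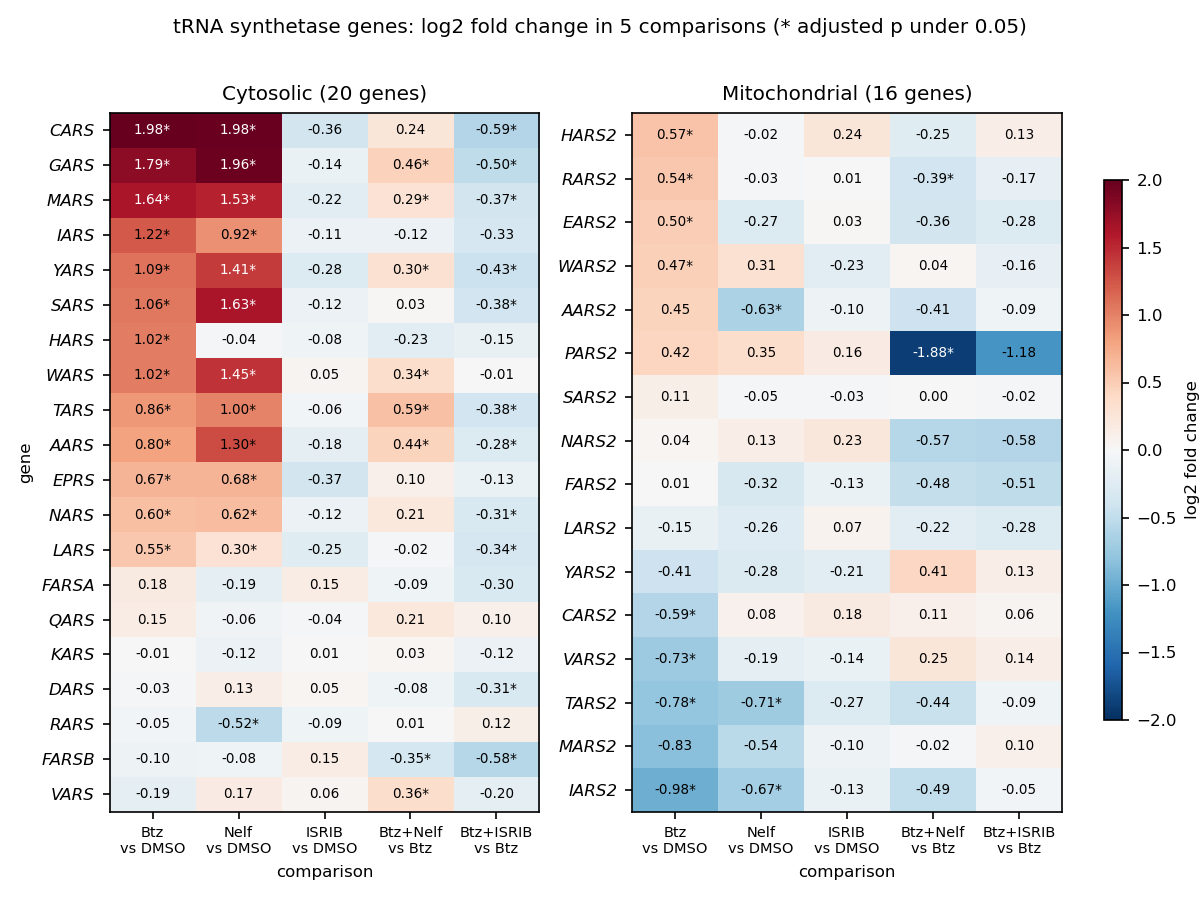
Log2 fold changes (printed in each cell and coloured from blue, lower, to red, higher) of the 20 cytosolic (left) and 16 mitochondrial (right) genes, one row per gene in order of the bortezomib change, in 5 comparisons (columns). An asterisk marks an adjusted p under 0.05: 13 cytosolic genes were higher with bortezomib and 12 with nelfinavir, none was called with ISRIB alone, and 11 were lower with Btz+ISRIB than with Btz.

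The levels in single libraries show these changes directly. *CARS* (chr11:3022152-3078843, minus strand, GRCh37 as are all gene spans below) stood at 28.8, 28, 27.1 and 32.1 CPM in the 4 DMSO libraries and at 21.9, 25.4, 23.4 and 19.7 with ISRIB. It stood at 126, 113, 113 and 106 with nelfinavir and at 125, 107, 111 and 116 with bortezomib. With Btz+Nelf it read 118, 129, 153 and 144, and with Btz+ISRIB 68.5, 80.8, 89.4 and 67.1. The 8 single-agent libraries lay above every DMSO and ISRIB library, and the Btz+ISRIB libraries lay between the untreated and the bortezomib range without meeting either. *GARS* (chr7:30620149-30673649, plus strand), which serves both compartments, stood at 103, 102, 97.8 and 96.8 with DMSO and 91.3, 92.6, 87.9 and 90.3 with ISRIB. Nelfinavir gave 426, 364, 359 and 409 and bortezomib 349.5, 346, 328 and 359.6. Btz+Nelf gave 501, 496, 461 and 447 and Btz+ISRIB 239, 263, 237 and 238. In TMM-scaled CPM the Btz+Nelf libraries were the highest of the 24 and did not overlap either single agent. The TMM factors were 0.8133 to 0.8651 in the Btz+Nelf libraries and 1.1606 to 1.2074 in the nelfinavir libraries. Without these factors the Btz+Nelf libraries do not lie above those of nelfinavir alone.

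*MARS* (chr12:57869228-57911352, plus strand) read 97.3, 101, 101 and 95.4 CPM with DMSO and 89.8, 76.8, 78.5 and 94.1 with ISRIB. It read 283, 259, 304 and 296 with nelfinavir and 283, 281, 324 and 340.2 with bortezomib. Btz+Nelf gave 380.1, 382, 377 and 365 and Btz+ISRIB 226, 229, 238 and 258. All Btz+Nelf libraries exceeded all bortezomib libraries, and all Btz+ISRIB libraries lay below them. The annotated 3′ end of *MARS* overlaps that of *DDIT3*, a stress transcription factor gene on the opposite strand, which rose by 2.44 with bortezomib and 2.55 with nelfinavir, and since the strand setting of the counting is not given in the sources used here, reads from the overlap cannot be told apart and the *MARS* values are uncertain.

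*SARS* (chr1:109756540-109780804, plus strand) stood at 62.6, 59.4, 54.1 and 54.6 CPM with DMSO and 51.4, 54.8, 53.2 and 52.5 with ISRIB. Nelfinavir gave 196, 173, 175 and 171, bortezomib 119, 138, 105 and 117. Btz+Nelf gave 105, 103, 154 and 128 and Btz+ISRIB 89.5, 96.1, 102 and 81.4. Here the nelfinavir libraries were above every library that held bortezomib, including both co-treatments. *WARS* (chr14:100800127-100843142, minus strand) read 28.7, 24.8, 32.9 and 27.8 with DMSO and 31.4, 28.3, 27.9 and 30.4 with ISRIB. It read 80.8, 73.8, 79.3 and 78.0 with nelfinavir and 60.1, 56.2, 46.7 and 68.0 with bortezomib. It read 64.6, 72.9, 72.1 and 83.5 with Btz+Nelf and 54.3, 58.0, 64.2 and 52.5 with Btz+ISRIB. The Btz+ISRIB libraries of *WARS* lay within the range of its bortezomib libraries, whereas those of *CARS*, *GARS* and *MARS* lay below. *YARS* (chr1:33240838-33283632, minus strand) stood at 52.4, 55.0, 60.0 and 59.5 with DMSO and 47.3, 46.0, 50.1 and 44.1 with ISRIB. It stood at 154, 143, 153 and 152 with nelfinavir and 123, 108, 145 and 106 with bortezomib. With Btz+Nelf and Btz+ISRIB the values were 155, 145, 158 and 136 and 87.2, 89.0, 93.8 and 88.5. Every ISRIB library of *YARS* lay below every DMSO library, though the change of -0.28 with ISRIB alone was not called (adjusted p = 0.675).

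**Figure D3:**
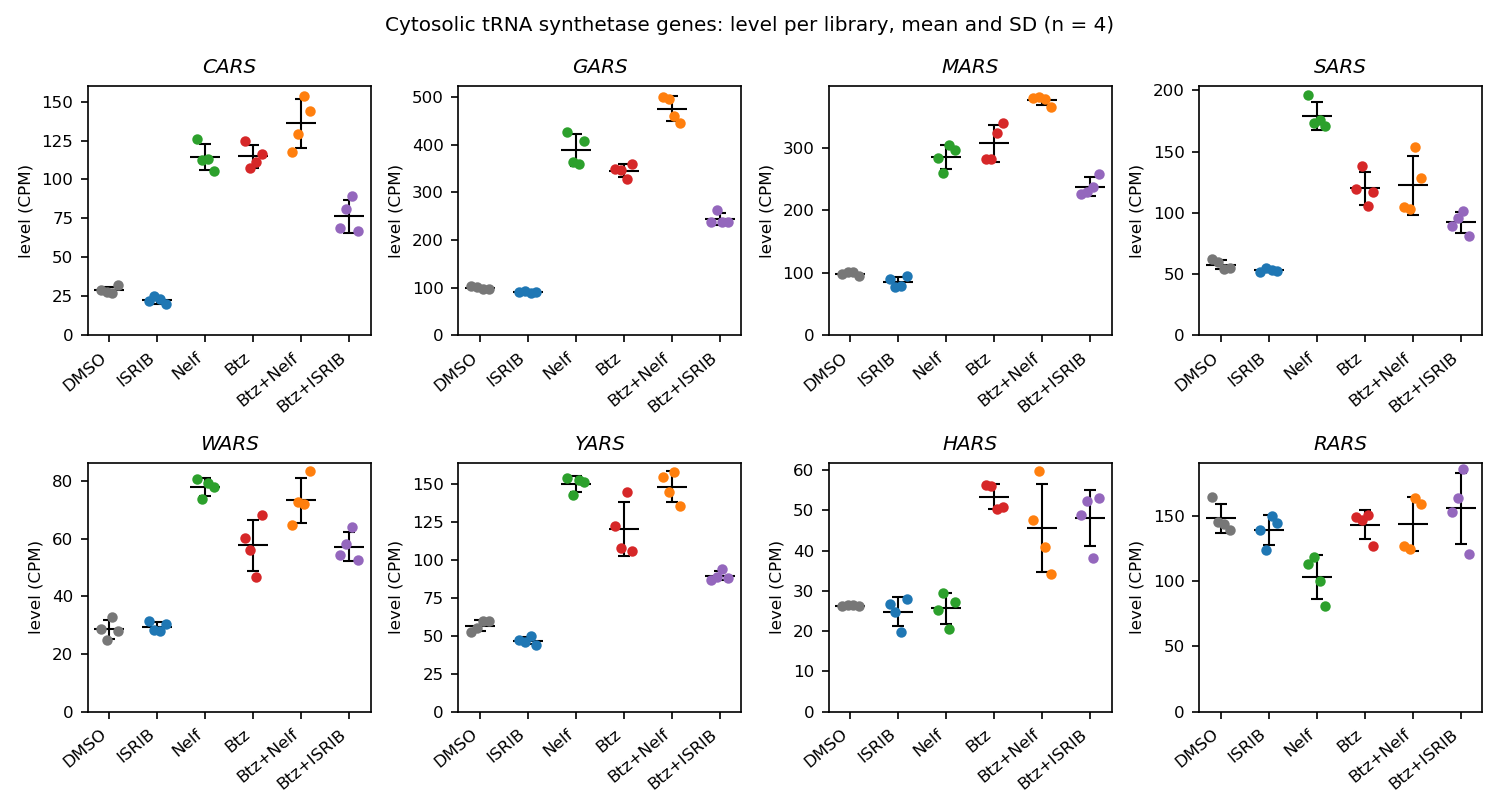
Level in CPM (vertical axis, from 0) of 8 cytosolic genes in each library by treatment (horizontal axis), with the mean and SD of 4. *CARS*, *GARS*, *MARS*, *SARS*, *WARS* and *YARS* rose with both single agents, *HARS* stood at a mean of 53.4 CPM with bortezomib and 25.6 with nelfinavir, and *RARS* was lowest with nelfinavir.

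The single agents were also compared directly, which uses no shared control. Between Btz and Nelf, 25.2% of all genes were called higher with bortezomib and 23.6% lower. Of the cytosolic genes, 4 were higher with bortezomib: *HARS* by 1.06 (SE 0.144, adjusted p = 2.2e-07), *RARS* by 0.47, *FARSA* by 0.37 and *LARS* by 0.25. The 6 lower with bortezomib were *SARS* (-0.58, SE 0.105, adjusted p = 2.55e-05), *AARS* (-0.50), *WARS* (-0.43), *VARS* (-0.36), *YARS* (-0.32) and *GARS* (-0.17). *CARS* differed by 0.01 (SE 0.101) and *MARS* by 0.10 (SE 0.0808), neither called. *DARS*, at -0.16, passed with RLE or upper-quartile factors, without the mitochondrially encoded genes and in DESeq2. *GARS* was no longer called without Nelf replicate 1 or 4, Btz replicate 3, with the default filter, or with only the groups compared in the model (adjusted p 0.0531 to 0.174), and *LARS* was no longer called without Nelf replicate 2 or 4, Btz replicate 2 or 3, with RLE factors, with upper-quartile factors, without the mitochondrially encoded genes, without the low-count filter, or with only the groups compared in the model (adjusted p 0.0506 to 0.302), where without Btz replicate 2 it stood at 0.13. Scaled by library totals alone, where the median of all genes moved to -0.48, *FARSA* turned to -0.10, *LARS* to -0.22 and *RARS* to -0.0002, and 1 cytosolic gene was higher and 16 lower.

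The histidyl pair was called with bortezomib and not with nelfinavir, and the agents differed in the direct test. *HARS* (chr5:140052620-140071122, minus strand) stood at 26.2, 26.4, 26.4 and 26.2 CPM with DMSO and 26.9, 24.7, 19.8 and 28 with ISRIB. It stood at 25.3, 29.5, 20.5 and 27.2 with nelfinavir and 56.2, 56.0, 50.5 and 51.0 with bortezomib. Btz+Nelf gave 47.7, 59.9, 41.0 and 34.1 and Btz+ISRIB 49.0, 52.3, 38.1 and 53.0. In TMM-scaled CPM every library with bortezomib exceeded every library without it. That full separation does not hold without the TMM factors, which were 0.8651 for Btz+Nelf replicate 4 and 1.1945 for Nelf replicate 2. Under library totals alone *HARS* was still called higher, at 0.52 with bortezomib and 0.58 between the agents. Its mitochondrial counterpart *HARS2* (chr5:140071015-140078890, plus strand) stood at 8.59, 10.0, 9.51 and 10.7 with DMSO and 12.5, 11.3, 12.6 and 9.61 with ISRIB. It stood at 10.7, 6.71, 10.9 and 9.73 with nelfinavir and 15.4, 17.8, 12.2 and 11.9 with bortezomib. Btz+Nelf gave 12.9, 11.1, 14.1 and 10.3 and Btz+ISRIB 15.1, 16.1, 18.5 and 13.1. Bortezomib libraries of *HARS2* lay above all DMSO and nelfinavir libraries and met those of ISRIB. The change with bortezomib was 0.57 (SE 0.183, adjusted p = 0.00947), that with nelfinavir -0.02 (SE 0.182), and the difference between the agents 0.59 (SE 0.183, adjusted p = 0.0079). *HARS2* was no longer called without Btz replicate 2, or without the low-count filter (adjusted p 0.058 to 0.103), and in the direct comparison *HARS2* was no longer called without Btz replicate 2 (adjusted p 0.0806). Under library totals alone neither change of *HARS2* was called, at 0.07 (adjusted p = 0.758) with bortezomib and 0.12 (adjusted p = 0.6) between the agents.

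Both genes start head to head on chromosome 5, so that 1 short stretch lies before both starts. In the RefSeq starts on GRCh38.p14 the sequence between them is the 84 bases of chr5:140691371-140691454, printed on the plus strand, from next to the *HARS* start on the left to next to the *HARS2* start on the right.
HARS-HARS2: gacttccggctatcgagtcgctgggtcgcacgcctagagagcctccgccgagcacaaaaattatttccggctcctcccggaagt
Of these bases 59.5% are G or C, with 9 CpG dinucleotides, and neither promoter window held TGATGNAA or TGACGTCA. In the GRCh37 annotation the 3′ end of *HARS* overlaps *WDR55* on the opposite strand and *DND1* on its own strand, and that of *HARS2* overlaps *ZMAT2*. In that annotation the gene spans of *HARS* and *HARS2* overlap at their starts. With bortezomib the 3′ neighbours stood at -0.08 (SE 0.140), 1.13 (SE 0.415) and 0.03 (SE 0.117). *DND1* rose, from 1.96 to 4.29 CPM where *HARS* rose from 26.3 to 53.4, while neither *WDR55* nor *ZMAT2* was called. *ZMAT2* lies on the strand of *HARS2* and stood at 176 CPM with DMSO. With nelfinavir alone it fell by 0.36 (edgeR adjusted p = 0.0244). Between the agents *ZMAT2* was higher with bortezomib by 0.40 (SE 0.118, edgeR adjusted p = 0.00567), while *WDR55* (-0.28) and *DND1* (0.95) were not called. The counts of *HARS* and *HARS2* are therefore uncertain.

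Adding nelfinavir to bortezomib raised 7 cytosolic genes further and lowered 1, with a median of 0.15 against -0.02 over all genes, of which 15.6% were called higher and 13.4% lower. *TARS* rose by 0.59 (SE 0.0835, adjusted p = 2.09e-06), *GARS* by 0.46 (SE 0.0730, adjusted p = 1.08e-05) and *AARS* by 0.44 (SE 0.0886, adjusted p = 0.000267) relative to bortezomib alone. *VARS* (0.36), *WARS* (0.34), *YARS* (0.30) and *MARS* (0.29) rose less. *FARSB* fell by 0.35 (adjusted p = 0.0212). *CARS* stood at 0.24 (SE 0.102) and *SARS* at 0.03 (SE 0.106), neither called. The other 10 not called were *DARS*, *EPRS*, *FARSA*, *HARS*, *IARS*, *KARS*, *LARS*, *NARS*, *QARS* and *RARS*, between -0.23 and 0.21. *CARS* and *NARS* passed without Btz replicate 1, Btz+Nelf replicate 1 or Btz+Nelf replicate 2 (up to 0.36 and 0.33), and *QARS* without Btz replicate 1 or 4 or Btz+Nelf replicate 4 (up to 0.32). *FARSB* was no longer called without Btz replicate 2 or 3, Btz+Nelf replicate 2, 3 or 4, without the low-count filter, or with only the groups compared in the model (adjusted p 0.054 to 0.215), with a value of -0.20 without Btz replicate 2. *WARS* was no longer called without Btz replicate 3, Btz+Nelf replicate 4, or with only the groups compared in the model (adjusted p 0.0541 to 0.0942), and with only Btz and Btz+Nelf in the model 4 cytosolic genes were higher, *VARS* and *YARS* having also lost their calls (adjusted p 0.0771 and 0.0904).

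The change on adding nelfinavir was tested against the change nelfinavir made without bortezomib. Over all genes this difference was called higher for 9.74% and lower for 10%, against 1 and 11 of the 20 cytosolic genes. The changes without and with bortezomib were 1.98 and 0.24 for *CARS*, a difference of -1.73 (SE 0.147, adjusted p = 9.29e-11). For *SARS* they were 1.63 and 0.03, a difference of -1.60 (SE 0.150, adjusted p = 1.03e-09). For *GARS* the difference was -1.50, for *MARS* -1.24, for *WARS* -1.11, for *YARS* -1.10 and for *IARS* -1.04. It was -0.86 for *AARS*, -0.58 for *EPRS*, -0.41 for *TARS* and -0.41 for *NARS*. For these 11 genes nelfinavir thus added less on the log2 scale where bortezomib was present. *RARS* went the other way, at 0.53 (SE 0.167, adjusted p = 0.0224): nelfinavir lowered it alone, and with bortezomib the change was 0.01. *RARS* was no longer called without DMSO replicate 1, Nelf replicate 4 (adjusted p 0.0578 to 0.068), *TARS* was no longer called without Btz replicate 2, Btz+Nelf replicate 4, or without the low-count filter (adjusted p 0.0541 to 0.0769), and without Btz+Nelf replicate 4 *QARS* passed as well, at 0.39. *NARS* was no longer called without DMSO replicate 3 or 4, Nelf replicate 1 or 2, Btz replicate 1, 2 or 4, Btz+Nelf replicate 1, 2 or 4, without the low-count filter, or with only the groups compared in the model (adjusted p 0.0538 to 0.166).

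**Figure D4:**
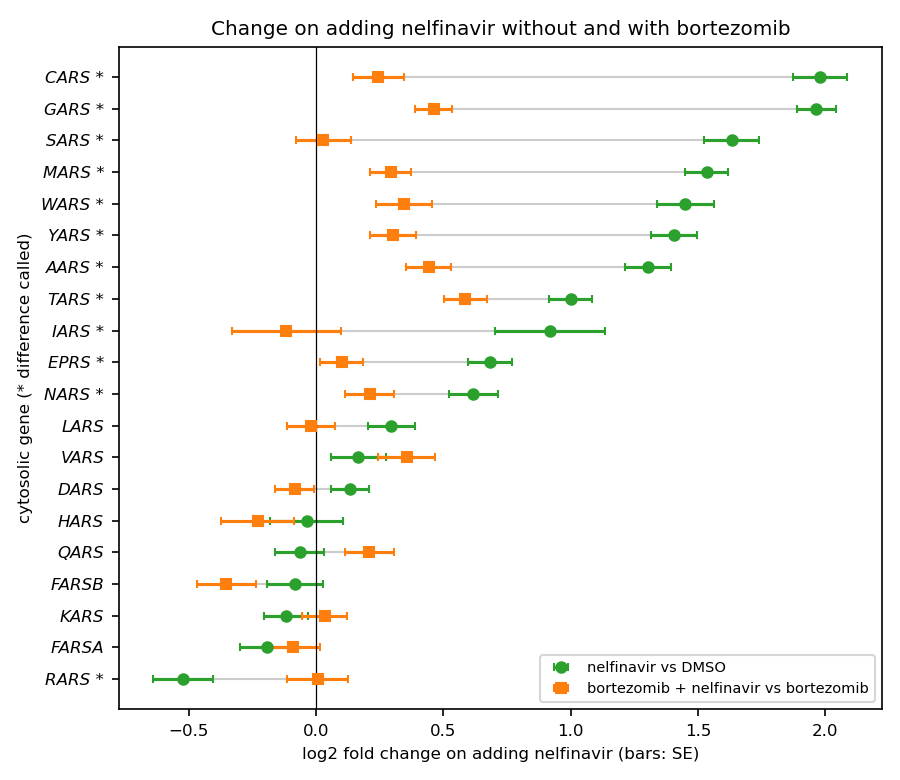
Log2 fold change (horizontal axis, bars are SE) on adding nelfinavir to DMSO-treated cells (green circles) and to bortezomib-treated cells (orange squares) for the 20 cytosolic genes (vertical axis), in order of the former. An asterisk marks a called difference between both changes: *CARS* went from 1.98 to 0.24, *SARS* from 1.63 to 0.03 and *RARS* from -0.52 to 0.01.

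Adding ISRIB to bortezomib lowered 11 of the 20 cytosolic genes and raised none, with a median of -0.31 against 0.01 over all genes, of which 6.89% were called higher and 5.34% lower. *CARS* fell by 0.59 (SE 0.104, adjusted p = 0.000169), *FARSB* by 0.58 (SE 0.118, adjusted p = 0.000946) and *GARS* by 0.50 (SE 0.0737, adjusted p = 1.04e-05). *YARS* stood at -0.43, *SARS* and *TARS* at -0.38 each, and *MARS* at -0.37. *LARS* (-0.34), *DARS* (-0.31), *NARS* (-0.31) and *AARS* (-0.28) completed the 11. The 9 not called were *WARS* (-0.01, SE 0.113), *IARS* (-0.33, SE 0.217), *FARSA* (-0.30), *VARS* (-0.20), *HARS* (-0.15), *EPRS* (-0.13), *KARS* (-0.12), *QARS* (0.10) and *RARS* (0.12). *FARSB* and *DARS*, which bortezomib had not raised, were thus among the genes that fell. *AARS* was no longer called without Btz replicate 1, 2 or 4, Btz+ISRIB replicate 1, 3 or 4, without the low-count filter, or with only the groups compared in the model (adjusted p 0.056 to 0.136), and *NARS* was no longer called without Btz replicate 1, 2 or 4, Btz+ISRIB replicate 1, 3 or 4, or with only the groups compared in the model (adjusted p 0.0541 to 0.132). *LARS* was no longer called without Btz replicate 2 or 3, Btz+ISRIB replicate 1 or 3, or with only the groups compared in the model (adjusted p 0.0536 to 0.102), *SARS* was no longer called without Btz replicate 2, Btz+ISRIB replicate 1 or 4 (adjusted p 0.0558 to 0.104), and without Btz replicate 2 the count was 7.

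ISRIB alone gave no call among the 36 members, nor among all 12685 genes (0% called, edgeR). At an unadjusted p under 0.05 there were 5 members, all cytosolic, and 702 of all genes. These 5 were *CARS* (-0.36, SE 0.113), *EPRS* (-0.37, SE 0.0867), *YARS* (-0.28, SE 0.0933), *LARS* (-0.25, SE 0.0945) and *MARS* (-0.22, SE 0.0838), each with a level below that with DMSO. *EPRS* was called lower by DESeq2 (-0.36) and by edgeR with only the DMSO and ISRIB libraries (-0.37), where 21 and 81 genes were called in all. The change on adding ISRIB differed with bortezomib from that without it for *FARSB* (-0.72, SE 0.161, adjusted p = 0.00502), *GARS* (-0.36, SE 0.105, adjusted p = 0.0397) and *DARS* (-0.35, SE 0.107, adjusted p = 0.0481), against 2.92% of all genes called higher and 1.89% lower. Of these 3, *FARSB* was called under every alternative and with each library left out in turn. *GARS* was no longer called without DMSO replicate 1, 2, 3 or 4, ISRIB replicate 1, 2 or 4, Btz replicate 1, 2 or 4, Btz+ISRIB replicate 1, 3 or 4, or without the low-count filter (adjusted p 0.0521 to 0.142). *DARS* was no longer called without DMSO replicate 1, 2, 3 or 4, ISRIB replicate 1, 2 or 4, Btz replicate 2, 3 or 4, Btz+ISRIB replicate 1, 2, 3 or 4, without the low-count filter, or with a replicate block (adjusted p 0.0517 to 0.18), and DESeq2 called 5 cytosolic genes.

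Mitochondrial synthetase genes had lower levels, with DMSO means from 3.51 CPM for *PARS2* (proline) to 67.6 for *IARS2* (isoleucine), against 26.3 for *HARS* to 168 for *DARS* among the cytosolic genes. With bortezomib 4 of the 16 were higher and 4 lower, with a median of 0.03 against 0.00 over all genes, shares near the 27.6% higher and 25.8% lower of all genes tested. *HARS2* (histidine), *RARS2* (arginine, 0.54), *EARS2* (glutamate, 0.50) and *WARS2* (tryptophan, 0.47) rose. *IARS2* fell by 0.98 (SE 0.234, adjusted p = 0.000701), *TARS2* (threonine) by 0.78 (SE 0.174, adjusted p = 0.000318), *VARS2* (valine) by 0.73 and *CARS2* (cysteine) by 0.59. The 8 not called were *AARS2* (0.45), *PARS2* (0.42), *SARS2* (0.11), *NARS2* (0.04), *FARS2* (0.01), *LARS2* (-0.15), *YARS2* (-0.41) and *MARS2* (-0.83). *YARS2* and *MARS2* were called lower under 8 alternatives each, among them DESeq2 (-0.45 and -0.87). *AARS2* was called higher with the default filter (0.46), without DMSO replicate 4 (0.53) and without Btz replicate 3 (0.51). *WARS2* was no longer called without DMSO replicate 2, Btz replicate 2, with upper-quartile factors, or without the low-count filter (adjusted p 0.0527 to 0.23), *EARS2* was no longer called without Btz replicate 1, or without the low-count filter (adjusted p 0.0596 to 0.0832), and without Btz replicate 2 the count of higher genes was 2, *WARS2* stood at 0.26 and *VARS2* at -1.09. Without the low-count filter 1 was higher, and under library totals alone none was higher, 8 were lower and *WARS2* turned to -0.02. The annotated 3′ end of *EARS2* overlaps *GGA2* on the same strand, which rose by 0.73, so its count is uncertain, as are those of *YARS2*, which overlaps *DNM1L* on the opposite strand, of *RARS2*, which shares 112 bases at 97.3% identity with *KRT42P*, and of *SARS2* and *VARS2*, whose 3′ ends also belong to a transcript annotated under another gene. The 3′ end of *MARS2* overlaps a long noncoding RNA gene on its own strand, so its count is uncertain too. Those of *NARS2* and of the cytosolic *LARS* and *WARS* overlap long noncoding RNA genes on the opposite strand. That of *AARS2* overlaps *TMEM151B* (0 CPM with DMSO and with bortezomib) and another protein-coding gene there. With the strand setting not given, the counts of *NARS2*, *LARS*, *WARS* and *AARS2* are uncertain as well.

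With nelfinavir none of the 16 was higher and 3 were lower, beside 10.4% and 8.84% of all genes, with a median of -0.22. *TARS2* fell by 0.71 (SE 0.166, adjusted p = 0.00201), *IARS2* by 0.67 and *AARS2* (alanine) by 0.63, and the other 13 lay between -0.54 (*MARS2*) and 0.35 (*PARS2*). *IARS2* read 58.8, 66.0, 70.8 and 74.8 CPM with DMSO, 41.3, 53.3, 30.2 and 44.5 with nelfinavir and 29.7, 37.4, 36.3 and 33.9 with bortezomib, and every library of either agent lay below every DMSO library. *TARS2* means were 19.0 ± 1.22 with DMSO, 11.6 ± 1.80 with nelfinavir and 11.1 ± 1.60 with bortezomib (SD, n = 4 each). *IARS2* was no longer called without DMSO replicate 3 or 4, Nelf replicate 1, 3 or 4, or in DESeq2 (adjusted p 0.0567 to 0.136), and *AARS2* was no longer called without DMSO replicate 1 or 4, Nelf replicate 1, or without the low-count filter (adjusted p 0.053 to 0.109), so that without DMSO replicate 4 or Nelf replicate 1 the count was 1. In the direct comparison of both agents *AARS2* was higher with bortezomib by 1.08 (SE 0.205, adjusted p = 4.53e-05), *EARS2* by 0.77, *HARS2* by 0.59 and *RARS2* by 0.57. *CARS2* (-0.67) and *VARS2* (-0.54) were lower with bortezomib. *VARS2* was no longer called without Nelf replicate 1 or 3, Btz replicate 1, 3 or 4 (adjusted p 0.0582 to 0.107), leaving 1 lower gene, and without Btz replicate 2 it stood at -0.90. Under library totals alone 1 was higher and 6 were lower.

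Adding nelfinavir to bortezomib lowered *PARS2* by 1.88 (SE 0.501, adjusted p = 0.00477) and *RARS2* by 0.39 (SE 0.119, adjusted p = 0.0135), and none of the 16 was higher (median -0.30). The share called lower, 12.5%, was near the 13.4% of all genes, of which 15.6% were called higher (median -0.02). *PARS2* (chr1:55222571-55230196, minus strand) is at the low end of detection. It read 3.83, 1.69, 4.48 and 4.04 CPM with DMSO and 3.91, 4.46, 3.39 and 3.94 with ISRIB. It read 5.73, 4.0, 4.80 and 3.37 with nelfinavir and 3.63, 6.20, 4.43 and 4.54 with bortezomib. With Btz+Nelf it read 0.634, 0.908, 0.785 and 2.63, and with Btz+ISRIB 1.78, 2.51, 0 and 4.19. The Btz+Nelf libraries lay below all bortezomib libraries on 25 counts in all against 91, and the Btz+ISRIB libraries, at -1.18 (adjusted p = 0.101), ran from 0 to 4.19 CPM. The change of *PARS2* on adding nelfinavir also differed with bortezomib from that without it (-2.23, SE 0.644, adjusted p = 0.0126), as did that of *YARS2* (0.69, SE 0.251, adjusted p = 0.0487). For this difference 9.74% of all genes were called higher and 10% lower. *YARS2* was no longer called without DMSO replicate 1, 2, 3 or 4, Nelf replicate 1, 3 or 4, Btz replicate 1, 2 or 3, Btz+Nelf replicate 2, with upper-quartile factors, without the mitochondrially encoded genes, without the low-count filter, or with only the groups compared in the model (adjusted p 0.0502 to 0.108). *RARS2* was no longer called without Btz replicate 2 or 3, Btz+Nelf replicate 1 or 2, or without the low-count filter (adjusted p 0.052 to 0.133), with a value of -0.25 without Btz+Nelf replicate 1, and without Btz replicate 2 or 3 or Btz+Nelf replicate 1 the count of lower genes was 1. *VARS2* was called higher without Btz replicate 2, *YARS2* was called higher without Btz replicate 4 or Btz+Nelf replicate 3, and *IARS2*, at -0.49, was called lower without Btz+Nelf replicate 2 (-0.81, adjusted p = 0.0111) and without the low-count filter (-0.46). Adding ISRIB to bortezomib gave no call among the 16 (median -0.09, with 1 at an unadjusted p under 0.05, *PARS2*, which was called in DESeq2 and without Btz+ISRIB replicate 4). Of all genes, 6.89% were called higher and 5.34% lower there (median 0.01), so few calls among 16 genes would be usual.

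**Figure D5:**
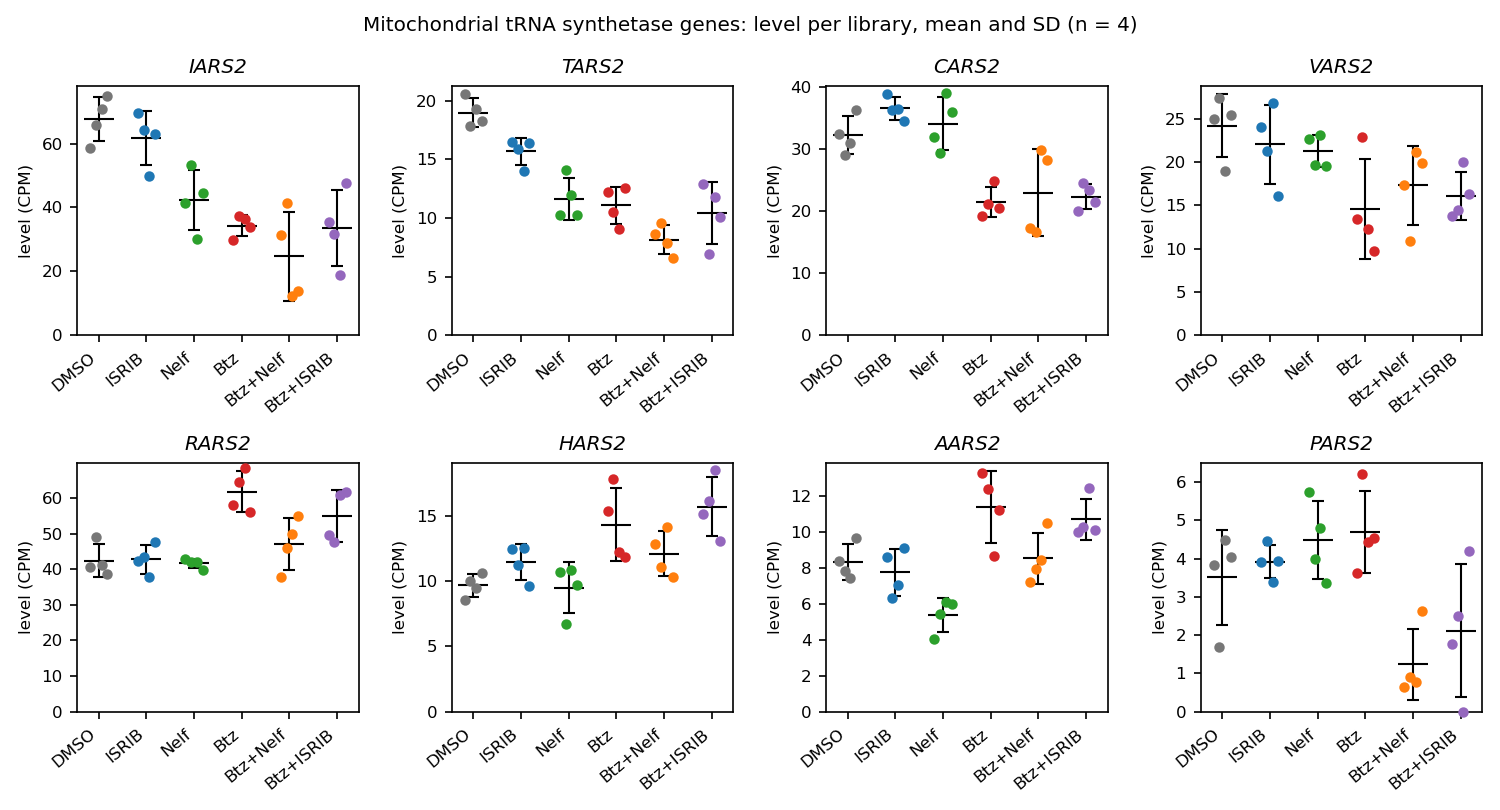
Level in CPM (vertical axis, from 0) of 8 mitochondrial genes in each library by treatment (horizontal axis), with the mean and SD of 4. *IARS2* and *TARS2* were lower with both single agents, *RARS2* and *HARS2* higher with bortezomib, *AARS2* lower with nelfinavir, and *PARS2* lowest with Btz+Nelf (mean 1.24 CPM).

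For 14 amino acids both a cytosolic and a mitochondrial enzyme gene were members, and the log2 ratio of the former to the latter (CPM with a pseudocount of 0.5) was taken in each library. For phenylalanine *FARSA* was used and *FARSB* left out. *FARSB* and *FARS2* changed by -0.10 and 0.01 with bortezomib, and by -0.58 and -0.51 on adding ISRIB. The counts of pairs below could thus differ with *FARSB*. With nelfinavir, alone (-0.08 and -0.32) or added (-0.35 and -0.48), *FARSB* stood above *FARS2*. Relative to DMSO the mean ratio was higher with bortezomib for 13 pairs and lower for 1, and higher with nelfinavir for 12 and lower for 2, with medians of 0.65 and 1.35. With bortezomib the ratio shifted by 2.55 for cysteine (*CARS*/*CARS2*) and 2.19 for isoleucine (*IARS*/*IARS2*). For methionine (*MARS*/*MARS2*) it shifted by 2.56, with an SD of 0.95 between bortezomib libraries, *MARS2* between 1.30 and 5.77 CPM there and *MARS* uncertain because of *DDIT3*. For alanine the ratio shifted by 0.38 with bortezomib and 1.89 with nelfinavir. The arginine ratio (*RARS*/*RARS2*) stood lower under both, with shifts of -0.59 and -0.51 in log2 units, and the histidine ratio moved by 0.48 with bortezomib and -0.01 with nelfinavir. Adding nelfinavir to bortezomib shifted 12 ratios up and 2 down (median 0.26), whereas adding ISRIB shifted 4 up and 10 down (median -0.28). These ratios are descriptions without a test.

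Of the 20 cytosolic genes, 8 (*EPRS*, *IARS*, *LARS*, *QARS*, *MARS*, *KARS*, *RARS* and *DARS*) encode enzymes of the multisynthetase complex, a large assembly held together by 3 scaffold proteins, and 12 act outside it. With bortezomib 4 of 8 complex genes and 9 of 12 others were higher, beside 27.6% of all genes, with medians of 0.35 and 0.94. With nelfinavir 4 were higher and 1 lower in the complex, and 8 were higher outside it, beside 10.4% higher and 8.84% lower of all genes, with medians of 0.21 and 1.15. Btz+Nelf against Btz raised 1 of 8 and 6 of 12 and lowered 0 and 1 (all genes 15.6% and 13.4%), and Btz+ISRIB against Btz lowered 3 of 8 and 8 of 12 (all genes 5.34%). By catalytic fold, bortezomib raised 6 of the 9 class I genes and 6 of the 10 class II genes (medians 1.02 and 0.70), the bifunctional *EPRS* standing in neither count. ISRIB on top of bortezomib lowered 4 of 9 class I and 7 of 10 class II genes. The 6 cytosolic genes with the TGATGNAA core in the windows printed above were all higher with bortezomib (median 1.04) and all higher with nelfinavir (median 1.15). Of the 10 matched cytosolic genes without it, 5 were higher with bortezomib (median 0.43), and 4 were higher and 1 lower with nelfinavir (median -0.05). No test of these groupings was made, and *GARS* and *SARS*, with no match in their windows, were among the genes that rose most.

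Of the 3 scaffold genes of that complex, none was called higher and 1 was lower with bortezomib and 1 with nelfinavir, and 2 were lower when either nelfinavir or ISRIB was added to bortezomib. Of all genes, 25.8%, 8.84%, 13.4% and 5.34% were called lower in those comparisons, and with so few genes nothing is read from the counts. *AIMP1* fell by 0.30 with bortezomib, 0.34 with nelfinavir, 0.31 with Btz+Nelf against Btz and 0.31 with Btz+ISRIB against Btz. *AIMP2* stood at -0.10 and 0.22 with the single agents, not called, and fell by 0.30 on adding nelfinavir and by 0.71 (adjusted p = 3.95e-06) on adding ISRIB to bortezomib. *EEF1E1* was not called, at -0.20 with bortezomib and 0.05 with nelfinavir. In mitochondria, glutaminyl-tRNA is made by an amidotransferase whose subunits are *QRSL1*, *GATB* and *GATC*, and *MTFMT* formylates the initiator methionyl-tRNA. Of these 4 genes, 1 was higher with bortezomib, none was called with nelfinavir, and 2 were lower in each co-treatment relative to bortezomib. Of all genes, 27.6% were called higher with bortezomib, and the shares lower are those given above. Nothing is read from these counts either. *QRSL1* rose by 0.71 with bortezomib and fell by 0.59 and 0.58 when nelfinavir or ISRIB was added. *MTFMT* fell by 0.92 and 0.93 in those comparisons, and *GATB* (0.31) and *GATC* (0.06) were not called with bortezomib. Of the sensors of uncharged tRNA, *EIF2AK4* fell by 0.69 with bortezomib and its activator *GCN1* rose by 0.53. With nelfinavir they stood at -0.13 and 0.13, neither called.

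As a reference for the pathway itself, *ATF4* mRNA rose by 1.37 with bortezomib and 1.89 with nelfinavir, and by a further 0.84 with Btz+Nelf. Its well-known targets *ASNS* (asparagine synthetase) and *TRIB3* (a pseudokinase that restrains ATF4) rose by 3.24 and 2.40 with bortezomib, 4.0 and 2.32 with nelfinavir, and 0.86 and 0.77 with Btz+Nelf against Btz. With Btz+ISRIB against Btz, *TRIB3* fell by 0.47 and *ASNS* (-0.19), *ATF4* (-0.14) and *DDIT3* (-0.08) were not called. *CHAC1*, also on the reference list, had 3 counts in the 24 libraries together and was not tested. The interaction of nelfinavir and bortezomib was -3.14 for *ASNS*, -1.56 for *DDIT3*, -1.55 for *TRIB3* and -1.06 for *ATF4*, all 4 called.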

How the data were processed

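HepG2 cells were profiled by QuantSeq 3′ mRNA-Seq (FWD) with 80-base single-end reads, in 6 treatments of 4 biological replicates. The deposited table holds raw counts per gene for 24 libraries, made by the authors from reads trimmed and aligned with cutadapt 2.8 and STAR per the submitters' processing notes, on hg19/GRCh37. Genes were the protein-coding, lincRNA and antisense genes of Ensembl release 87. The alignment was run in the nf-core RNA-Seq workflow with its own trimming switched off. Whether reads were assigned by strand, and whether molecular identifiers were used, is not given in the sources used here: reads of overlapping genes may be split or shared, and PCR copies may be counted. Groups were taken from the sample labels. Genes with at least 5 counts in enough libraries for the design and 25 in all were kept (12685 of 18915). Counts were scaled by TMM and tested with edgeR 4.0.16 (R 4.3.3), in a quasi-likelihood fit of all 6 groups with 8 contrasts, of which 2 are interactions, and Benjamini-Hochberg adjustment over all tested genes. The fit was tested on simulated data. SE is the log2 fold change divided by the square root of the F statistic. Levels are TMM-scaled CPM. Alternatives were RLE or upper-quartile factors in place of TMM, library totals alone, removal of the 13 mitochondrially encoded genes, no filter, the default filter, a replicate block, only the groups compared, DESeq2 1.42.0 and leaving out each library. No pair of replicates agreed within sampling noise (lowest chi-square per degree of freedom 2.144). The members, companion lists and alternatives were chosen with earlier results of these data known. Named genes were all 36 members and the companion list, with values per library for genes named by rule: WARS, YARS, CARS, GARS, MARS, SARS, PARS2, HARS and HARS2. Those of IARS2 in 3 treatments were added after its values were seen. Gene spans and overlaps are from a GENCODE annotation lifted to GRCh37, and promoter sequences from RefSeq on GRCh38.p14. Total counts of 5154533 to 6943164 per library leave genes of a few CPM with few counts, which limits their precision.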

Additional observations from a re-analysis of the deposited data

Results flagged for a closer look

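Within the groups of 4 libraries, 12 of the 216 examined had 1 library far from the other 3 by Dixon's ratio, where chance gives about 1 in 20. *AARS* stood at 78.9 CPM in DMSO replicate 3 against 90.1 to 91.1 in the other libraries of its group, and *DARS* stood at 149 CPM in Btz replicate 1 against 169 to 171 in the other libraries of its group. *GARS* stood at 263 CPM in Btz+ISRIB replicate 2 against 237 to 239 in the other libraries of its group, and *QARS* stood at 116 CPM in Nelf replicate 1 against 121 to 122 in the other libraries of its group. *QARS* stood at 114 CPM in Btz replicate 2 against 146 to 149 in the other libraries of its group, and *RARS* stood at 127 CPM in Btz replicate 4 against 147 to 151 in the other libraries of its group. *TARS* stood at 234 CPM in Nelf replicate 3 against 286 to 289 in the other libraries of its group, and *AARS2* stood at 12.4 CPM in Btz+ISRIB replicate 3 against 10.0 to 10.3 in the other libraries of its group. *EARS2* stood at 17.3 CPM in ISRIB replicate 1 against 14.8 to 15.2 in the other libraries of its group, and *FARS2* stood at 7.35 CPM in Nelf replicate 2 against 5.32 to 5.49 in the other libraries of its group. *PARS2* stood at 2.63 CPM in Btz+Nelf replicate 4 against 0.634 to 0.908 in the other libraries of its group, and *YARS2* stood at 16.2 CPM in Btz replicate 4 against 10.8 to 11.3 in the other libraries of its group. The high *GARS* and *PARS2* libraries stood in co-treatments whose comparisons with bortezomib were called, and neither call was lost without them.

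The change on adding nelfinavir differed between cells with and without bortezomib for 14 members (edgeR interaction term, Benjamini-Hochberg adjusted over all genes). Of the 20 cytosolic members 1 was called higher and 11 lower, and of the 16 mitochondrial members 1 higher and 1 lower. Among all genes, 9.74% were called higher and 10% lower, so the mitochondrial shares (6.25% each) were below those of all genes. On the log2 scale the difference was -1.73 for *CARS*, -1.60 for *SARS*, -1.50 for *GARS*, -1.24 for *MARS*, -1.11 for *WARS*, -1.10 for *YARS* and -1.04 for *IARS*. It was -0.86 for *AARS*, -0.58 for *EPRS*, -0.41 for *TARS* and -0.41 for *NARS*. For the mitochondrial *PARS2* it was -2.23, and it was above 0 for *YARS2* (0.69) and *RARS* (0.53). The change on adding ISRIB differed for *FARSB* (-0.72), *GARS* (-0.36) and *DARS* (-0.35), beside 2.92% of all genes called higher and 1.89% lower.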

How the results depend on the processing

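Of 819 results for called members under 9 other choices, 771 kept direction and call, 44 lost the call and 4 reversed. With 1 library left out, 752 of 864 kept both and 112 lost the call. Scaling by library totals alone turned *WARS2* to -0.0241 (Btz vs DMSO) and *FARSA*, *LARS* and *RARS* to -0.0984, -0.2215 and -2e-04 (Btz vs Nelf). It left 7 cytosolic genes lower, 0 mitochondrial higher and 8 lower for Btz vs DMSO, 1 cytosolic higher, 16 lower, 1 mitochondrial higher and 6 lower for Btz vs Nelf, and 0 mitochondrial higher in the nelfinavir interaction, as did upper-quartile factors, removing mitochondrially encoded genes, no filter and the compared groups alone. Upper-quartile factors called 1 cytosolic gene lower for Btz vs DMSO. Without a filter, 1 mitochondrial gene was higher for Btz vs DMSO, 0 cytosolic lower for Btz+Nelf vs Btz and 1 lower in the ISRIB interaction. With the compared groups alone, 1 cytosolic gene was lower for ISRIB, and 4 higher and 0 lower for Btz+Nelf vs Btz. DESeq2 called 1 cytosolic gene lower for ISRIB, 1 mitochondrial lower for Btz+ISRIB vs Btz and 5 cytosolic lower in the ISRIB interaction. Leaving out 1 library gave 2 to 5 mitochondrial genes higher for Btz vs DMSO, 1 to 3 lower for Nelf vs DMSO, and 1 to 2 lower for Btz vs Nelf. For Btz+Nelf vs Btz it gave 0 to 1 cytosolic lower, 0 to 1 mitochondrial higher and 1 to 2 lower, and for Btz+ISRIB vs Btz 7 to 11 cytosolic and 0 to 1 mitochondrial lower. It gave 0 to 2 cytosolic and 0 to 1 mitochondrial higher in the nelfinavir interaction, and 1 to 3 cytosolic lower in the ISRIB interaction. The cause was not tested. Samples were not treated as paired by replicate number in the main model, as the paper's methods describe no such block. Deviations correlated above 0.1 in 10 of 60 same-numbered pairs and 7 of 180 others, a larger share among the same-numbered pairs. Whether replicates of 1 number share a culture or batch was not tested. With the replicate block, 13 cytosolic genes were still higher with bortezomib, 90 of 91 calls held, and *DARS* lost its ISRIB interaction (-0.36, adjusted p = 0.0517). Depth limited *PARS2*, with 25 counts over the 4 Btz+Nelf libraries.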

Other observations

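Within treatments, some member genes varied together across libraries. Deviations of the log2 level (CPM plus 0.5) from the treatment mean, taken over the 24 libraries, had a Pearson r of 0.84 and a Spearman rho of 0.75 for *HARS* and *IARS2*, the highest of the 630 member pairs. For *IARS* and *IARS2*, the cytosolic and mitochondrial isoleucyl enzymes, r was 0.83 and rho 0.86, and r was 0.77 without the 2 farthest libraries. The median r of all pairs was 0.0075. The 4 libraries stood in the same order for *IARS* and *IARS2* in 3 of the 6 treatments (DMSO, ISRIB and Btz+ISRIB). The deviations share libraries and depth: with the share of mitochondrially encoded counts r was 0.59 for *IARS* and 0.67 for *IARS2*, and with the log2 total count it was -0.43 for both. The pattern was seen in the values and is given as a description, and the part of these library measures in it was not tested.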
